A study of Mus musculus with 6 samples.

Results

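SMAD proteins carry signals from receptors of the transforming growth factor beta (TGF-beta) superfamily into the nucleus. All 8 mouse genes of the family, Smad1, Smad2, Smad3, Smad4, Smad5, Smad6, Smad7 and Smad9, were found by symbol among the 49315 genes of the deposited expression table. They were followed in mouse embryonic fibroblasts, cells grown out of embryos, of 2 genotypes. The wild-type cells were Acvr1+/+ and the mutant cells Acvr1R206H/+, with 1 changed copy of the bone morphogenetic protein (BMP) receptor gene Acvr1. That amino acid change, R206H, is the classical one of fibrodysplasia ossificans progressiva (FOP), in which bone forms in soft tissue. Embryos were taken at day 13.5, and RNA after 2 days of culture at passage 0 in medium with 10% fetal bovine serum, with no added ligand named in the labels. There were 3 libraries of each genotype, biological replicates by the study's design text. The labels do not say whether each came from 1 embryo or a pool, or the sex or strain, so p-values measure the spread between these libraries. No Cre or transgene is named in them.

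BMP receptors phosphorylate Smad1, Smad5 and Smad9, while TGF-beta and activin receptors phosphorylate Smad2 and Smad3. Either kind then joins Smad4, the common partner, and binds regulatory DNA. Smad6 and Smad7 are inhibitory SMADs that are themselves induced by the pathway: Smad6 acts mainly on the BMP branch and Smad7 on both. A rise of the transcript of a SMAD says nothing of its phosphorylation, which RNA does not measure.

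The sequences at the start sites below show the motifs searched for in the members that were highest above wild type. They are from RefSeq on GRCm38.p6, 5′ to 3′ on the strand of the gene, with the motif in capitals. GTCTAGAC is the palindromic SMAD-binding element, known for Smad3 and Smad4, and GGCGCC is a GC-rich motif known for Smad1 and Smad5.
Smad6, chr9:64022045-64022074, minus strand: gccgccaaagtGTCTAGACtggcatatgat
Smad9, chr3:54755519-54755548, plus strand: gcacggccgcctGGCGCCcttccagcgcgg

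The Smad6 element spans the start site of its promoter window, with 4 bases before it and 4 from it on. For Smad6 and Smad9 the outermost annotated start lies further upstream, and counted from it both motifs fall within the gene. In the table of promoters, each window holds 250 bases before a start site and 50 after it. GTCTAGAC, searched on both strands, occurred in 0.213% of the 32851 windows. Smad7, the other inhibitory SMAD, was not among the members searched, so the element cannot be called particular to Smad6. GGCGCC, which in Smad9 begins 51 bases before the start site of its window, occurred in 11.9% of windows and also in that of Smad5. The shorter motif GTCT, which is contained in GTCTAGAC, is too common for its presence to set a member apart. On one strand or the other 28903 of the windows held it, while the window of Smad1 did not. CAGAC, in 49.6% of windows, was not found in the windows of Smad1, Smad3, Smad6 and Smad9. These are matches of letters, and no binding was measured here.

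The stretch just upstream of Smad6 and that of Smad3 are shown because these genes lie in the same region of chromosome 9 and had values in opposite directions. Both run upstream from the outermost start annotated in RefSeq and GENCODE. Capitals mark GTCT or its reverse complement AGAC.
Smad6, chr9:64022086-64022309, minus strand: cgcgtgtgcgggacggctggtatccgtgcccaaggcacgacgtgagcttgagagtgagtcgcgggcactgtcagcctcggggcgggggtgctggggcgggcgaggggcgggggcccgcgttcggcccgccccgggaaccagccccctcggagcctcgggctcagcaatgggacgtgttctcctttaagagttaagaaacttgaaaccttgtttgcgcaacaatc
Smad3, chr9:63757995-63758244, minus strand: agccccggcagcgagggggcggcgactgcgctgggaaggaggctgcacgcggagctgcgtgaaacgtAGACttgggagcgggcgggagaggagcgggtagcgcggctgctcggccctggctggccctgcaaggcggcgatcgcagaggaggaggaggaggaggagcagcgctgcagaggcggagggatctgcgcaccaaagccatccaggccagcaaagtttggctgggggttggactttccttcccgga

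Both windows are rich in G and C, at 66.3% for Smad6 and 67.7% for Smad3 over the full 300 bases, against a median of 52.7% over all windows. The Smad6 window held 31 CG pairs and the Smad3 window 25, against a median of 7. Windows of Smad1, Smad5 and Smad9 were at or above 63.0% as well. Promoter windows were searched for 5 of the 8 members. Smad2, Smad4 and Smad7, which lie on chromosome 18, were left out of that search.

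Levels were given as TPM, a share of the transcripts of a library after dividing reads by gene length, so levels of different genes can be set side by side. Depth, estimated from the steps in the values, was 17.5 M to 24.6 M reads per library. All 8 members were at 5.92 TPM or more in every library, and all passed the filter for testing, TPM 1 or more in at least 3 libraries. Between 150 and 421 reads per library lay behind Smad9, and between 766 and 3689 behind each of the others. Changes are differences in mean log2(TPM + 1), mutant minus wild type, tested with limma across 14818 genes with Benjamini-Hochberg adjustment at 0.05. On the second principal component wild-type library 1 lay far from the rest, and it had the highest summed level of endothelial markers, at 54.5 TPM against at most 33.6 TPM in the others. The fibroblast markers Col1a1, Thy1, Vim and Twist1 were abundant in all 6 libraries.

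In R206H cells 1 of 8 SMAD genes, the inhibitory Smad6, was higher, none was lower, and 7 did not pass the threshold. Smad6 rose 1.45-fold and passed Smad7 to become the most abundant SMAD transcript of the mutant cells. Among all genes tested, 2.04% were called, 1.26% higher and 0.79% lower. At an unadjusted p under 0.05 there were 3 members, Smad6, Smad9 and Smad3, beside 26.1% of all genes tested. In the same 3 members the genotypes did not overlap, against 32.9% of all genes tested, so neither share of members sets the family apart. The median log2 change was 0.06 over the 8 members and 0.02 over all genes tested.

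**Figure D1:**
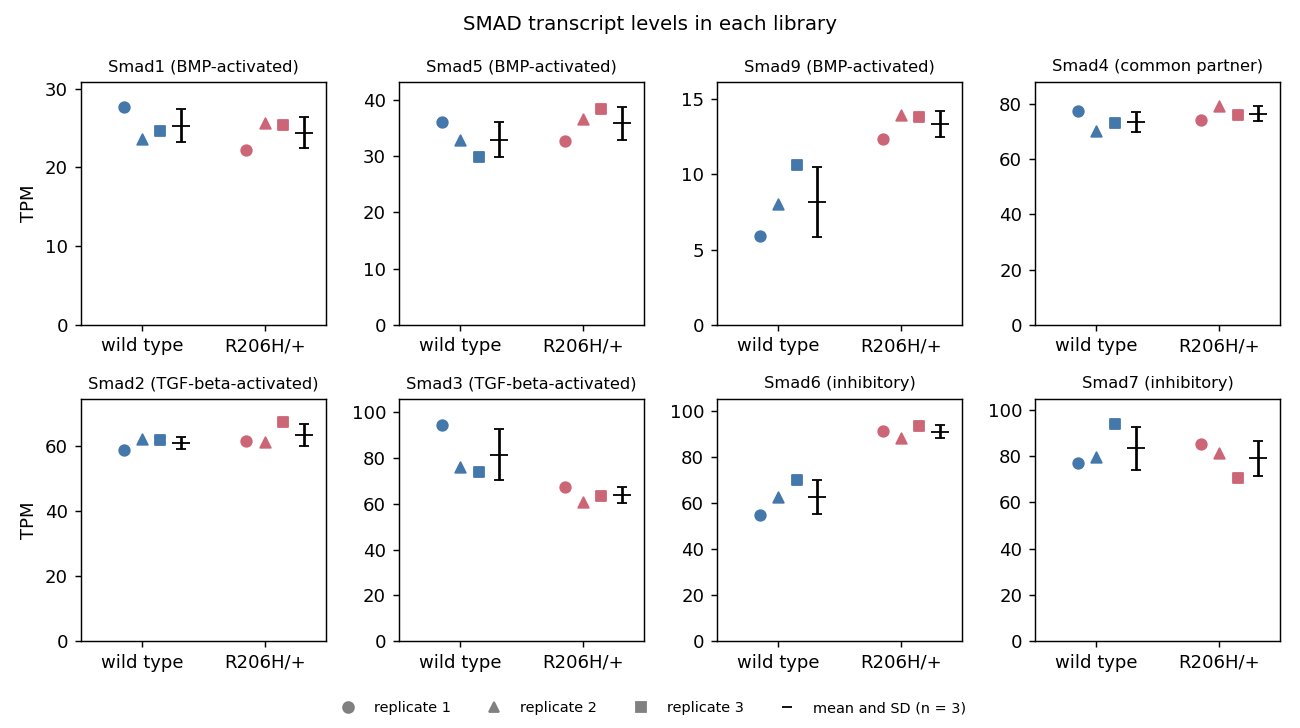
TPM of each SMAD gene (vertical axes from 0) in the 3 wild-type and 3 R206H/+ libraries, 1 symbol per replicate, with mean and SD beside them. The R206H libraries lie above all wild-type libraries for Smad6 and Smad9 and below them for Smad3, and the genotypes overlap in the other 5 panels.

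Smad6 (ENSMUSG00000036867, chromosome 9, 63953076 to 64022059, GRCm38, minus strand) encodes an inhibitory SMAD known to bind BMP type I receptors and to compete with Smad4 for activated Smad1. Its levels were 55.1, 62.7 and 70.3 TPM in wild type and 91.4, 88.1 and 93.7 TPM in R206H, libraries 1 to 3 of each. Every R206H library lay above every wild-type library, and the R206H libraries lay closer together. Mean levels were 91.1 ± 2.78 TPM against 62.7 ± 7.60 TPM (SD, n = 3 each). The log2 change was 0.54 (SE 0.0907, 95% interval 0.32 to 0.75), with a limma adjusted p of 0.0476. An exact permutation test, two-sided, gave p = 0.1 here and for Smad9 and Smad3, which is the floor for 3 libraries against 3. The change was larger in size than that of 88.6% of genes tested.

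The call for Smad6 lay close to the threshold. Its adjusted p with limma was 0.138 and 0.121 without wild-type libraries 2 and 3, and 0.0503, 0.152 and 0.102 without R206H libraries 1, 2 and 3. Without wild-type library 1 it was 0.0483, and with limma voom on reads rebuilt from TPM 0.0213. Epithelial markers moved in the other direction in the same libraries, with 8 of 10 tested (of 14) lower without overlap and 2 called, and a summed level of 197.6 to 399.8 TPM in R206H against 545.9 to 639.6 TPM in wild type. No epithelial marker was at 0 in all libraries. Over all genes tested, 15.0% were lower and 17.9% higher without overlap, and 2.04% were called. Of 12 fibroblast markers 9 were higher without overlap and 1 was called, and their summed level was 11650 to 14610 TPM in R206H against 7617 to 9832 TPM in wild type. Of 8 tested neural and glial markers, Sox10 and Foxd3 fell (log2 changes -1.10 and -1.09), Tubb3 and Prph rose (1.19 and 1.57), and 4 in all were lower without overlap. Their summed level was 79.6 to 89.4 TPM in wild type and 103.1 to 113.6 TPM in R206H. Of 8 tested endothelial markers 3, Cdh5, Kdr and Esam, were lower without overlap and none was called. The summed levels of macrophage and skeletal muscle markers overlapped. Mitochondrial transcripts took 4.16% to 4.57% of TPM in wild type and 3.43% to 3.85% in R206H. The part of these differences in the values of Smad6, Smad3 and Smad9 was not tested. In bulk RNA, a different share of cells that express a gene and a different level per cell cannot be told apart.

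Smad7 (ENSMUSG00000025880, chromosome 18, 75367529 to 75395935), the other inhibitory SMAD, blocks both BMP and TGF-beta receptors and brings Smurf ubiquitin ligases to them. It had 76.9, 79.5 and 94.1 TPM in wild type and 85.1, 81.6 and 70.4 TPM in R206H. The genotypes overlapped, and the highest and the lowest library were wild-type library 3 and R206H library 3. The log2 value was -0.08 (SE 0.102, limma adjusted p = 0.675). Its 95% interval, -0.32 to 0.16, covers ratios from 0.802 to 1.12 and lies below the estimate for Smad6.

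The ratio of Smad6 to Smad7 within a library does not depend on how libraries are scaled. It was 0.717, 0.789 and 0.747 in wild type and 1.07, 1.08 and 1.33 in R206H. Smad7 was thus the more abundant of the pair in each wild-type library and Smad6 in each R206H library. Smad6 and Smad7 together reached 164.1 to 176.5 TPM in R206H and 132.0 to 164.4 TPM in wild type, with an overlap of wild-type library 3 with R206H library 3. Set against the summed TPM of Smad1, Smad5 and Smad9, the inhibitory pair had a ratio of 2.21 ± 0.318 in wild type and 2.32 ± 0.268 in R206H, a difference smaller than the SD of either genotype.

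**Figure D2:**
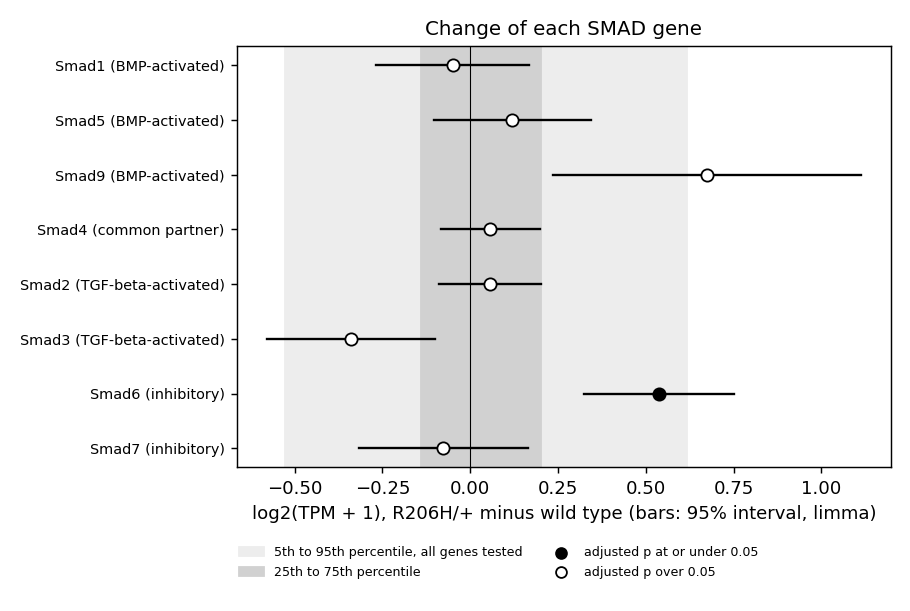
Change of each SMAD gene as log2(TPM + 1) in R206H/+ minus wild type (horizontal axis), with 95% intervals from limma, over grey bands for the 5th to 95th and 25th to 75th percentiles of all genes tested. Smad6 carries the filled symbol of an adjusted p at or under 0.05, and the intervals of Smad9 and Smad3 also leave out 0 while their adjusted p were 0.0865 and 0.0993.

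Of the SMADs that BMP receptors activate, Smad9 (ENSMUSG00000027796, chromosome 3, 54755582 to 54801257, plus strand) had the largest value of the whole family. Smad9, in older work called Smad8, is a weaker activator than Smad1 and Smad5 and is itself known as a BMP target gene. It had 5.92, 8.01 and 10.6 TPM in wild type and 12.3, 13.9 and 13.8 TPM in R206H. All R206H libraries lay above all wild-type libraries, and wild-type library 1 was the lowest. Mean levels were 13.3 ± 0.885 and 8.18 ± 2.34 TPM, a ratio of 1.63. The log2 value was 0.67 (SE 0.186, 95% interval 0.24 to 1.11), short of the threshold (limma adjusted p = 0.0865). It was 0.49 without wild-type library 1 (adjusted p = 0.0992), and 0.68 with voom on rebuilt reads (adjusted p = 0.0486). With voom 8.82% of the genes tested were called, 4.97% higher and 3.85% lower.

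Smad1 and Smad5, the main BMP-activated SMADs of most tissues, overlapped between the genotypes. Smad1 (ENSMUSG00000031681, chromosome 8, 79338395 to 79399518) had 27.7, 23.7 and 24.6 TPM in wild type and 22.2, 25.7 and 25.4 TPM in R206H. Its log2 value was -0.05 (95% interval -0.27 to 0.17, limma adjusted p = 0.771), and its sign changed when wild-type library 1 was left out (0.015). Smad5 (ENSMUSG00000021540, chromosome 13, 56703010 to 56742377) had 36.1, 32.9 and 29.9 TPM in wild type and 32.7, 36.6 and 38.4 TPM in R206H. Its log2 value was 0.12 (95% interval -0.10 to 0.34, limma adjusted p = 0.461). Changes of either gene as large as the estimate for Smad6 lie outside these intervals.

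Smad9 took a larger part of the BMP-activated SMAD transcripts in each R206H library. Its share of the summed TPM of Smad1, Smad5 and Smad9 was 8.49%, 12.4% and 16.3% in wild type and 18.3%, 18.3% and 17.8% in R206H. The spread among wild-type libraries, with an SD of 3.91 percentage points, was far wider than among R206H libraries, with 0.296. The sum itself was 64.6 to 69.8 TPM in wild type and 67.2 to 77.5 TPM in R206H, so the genotypes overlapped.

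Among the SMADs that TGF-beta and activin receptors activate, Smad3 (ENSMUSG00000032402, chromosome 9, 63646767 to 63757994, minus strand) had the one downward value beyond the spread of the libraries. Smad3 binds DNA directly and carries much of the fibrotic response of fibroblasts to TGF-beta. It had 94.4, 76.2 and 73.7 TPM in wild type and 67.4, 60.6 and 63.4 TPM in R206H. All R206H libraries lay below all wild-type libraries, and wild-type library 1 was the highest by a wide margin. The log2 value was -0.34 (SE 0.101, 95% interval -0.58 to -0.10) and did not pass (limma adjusted p = 0.0993). It was -0.23 without wild-type library 1 (adjusted p = 0.107) and -0.37 with voom (adjusted p = 0.0423).

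Smad2 (ENSMUSG00000024563, chromosome 18, 76241580 to 76310963), whose common form does not bind DNA by itself, was among the steadiest members. Its levels were 58.8, 62.1 and 62.0 TPM in wild type and 61.6, 61.4 and 67.4 TPM in R206H (log2 value 0.06, 95% interval -0.09 to 0.20, limma adjusted p = 0.615). Within libraries the ratio of Smad2 to Smad3 was 0.623, 0.815 and 0.842 in wild type and 0.914, 1.01 and 1.06 in R206H, with no overlap. The mean ratio was 0.760 ± 0.119 in wild type and 0.997 ± 0.0761 in R206H. The SMADs of the TGF-beta branch, Smad2 and Smad3 summed, were 2.20, 2.14 and 2.09 times those of the BMP branch in wild type and 1.92, 1.60 and 1.69 times in R206H. That ratio did not overlap between genotypes. Both ratios hold the Smad3 values given above, so they are no further result. The ratio of Smad2 to Smad3 was added after the values were seen. Of all genes tested, 32.9% did not overlap in TPM.

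Smad4 (ENSMUSG00000024515, chromosome 18, 73639009 to 73703780), the partner of both branches, had 77.4, 70.3 and 73.0 TPM in wild type and 74.3, 79.5 and 76.0 TPM in R206H. The genotypes overlapped, and the log2 value was 0.06 (95% interval -0.08 to 0.20, limma adjusted p = 0.586). Of the 8 members, Smad4 and Smad2 had the narrowest intervals.

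Ordered by mean level, the wild-type libraries had Smad7 (83.5 TPM), Smad3 (81.4), Smad4 (73.6), Smad6 (62.7), Smad2 (61.0), Smad5 (33.0), Smad1 (25.3) and Smad9 (8.18). Neighbours whose library ranges overlapped, and so were not apart beyond their spread, were Smad7 with Smad3, Smad3 with Smad4, and Smad6 with Smad2. In R206H libraries the order was Smad6 (91.1 TPM), Smad7 (79.0), Smad4 (76.6), Smad3 (63.8), Smad2 (63.4), Smad5 (35.9), Smad1 (24.4) and Smad9 (13.3). There Smad7 overlapped with Smad4, and Smad3 with Smad2. Without wild-type library 1 all 7 pairs of neighbours were apart in wild type, in place of 4. In both genotypes the BMP-activated SMADs were the last 3 of the order. Among genes tested, Smad7 was above 84.7% by mean level and Smad9 above 40.5%.

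**Figure D3:**
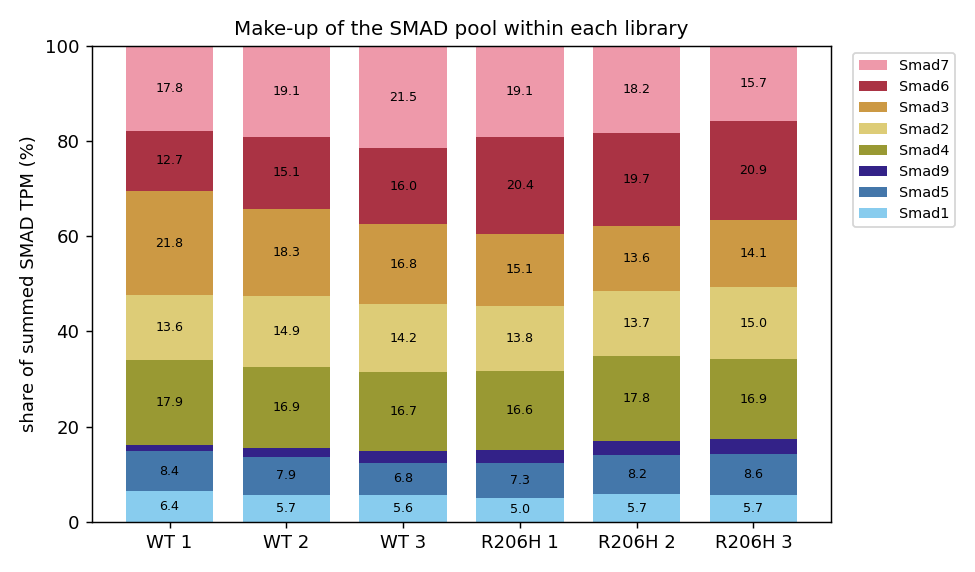
Share of each SMAD gene in the summed TPM of all 8 (vertical axis, percent) for each library. Smad6 takes 12.7% to 16.0% in wild type and 19.7% to 20.9% in R206H/+, and Smad3 takes 16.8% to 21.8% and 13.6% to 15.1%.

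The summed level of the 8 genes was 432.4, 415.4 and 438.2 TPM in wild type and 447.0, 447.4 and 448.4 TPM in R206H, with every R206H library above every wild-type library by a small margin. The make-up of that sum differed more than its size. Smad6 had a mean share of 20.3% ± 0.601 in R206H against 14.6% ± 1.70 in wild type, Smad3 14.2% ± 0.769 against 19.0% ± 2.57, and Smad9 2.98% ± 0.195 against 1.91% ± 0.525. For these 3 genes the genotypes did not overlap in share, and for the other 5 they did. They are the same 3 that did not overlap in TPM, so the shares restate those values. In TPM, 32.9% of all genes tested did not overlap.

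Smad3 and Smad6 lie on the same strand of chromosome 9 with start sites 264 kb apart. Within 500 kb of the Smad6 start site 26 other genes were annotated and 14 were tested, of which none was called, 6 had positive and 8 negative values, with a median log2 value of -0.07. At an unadjusted p under 0.05 there were Smad3 and Tipin, beside 26.1% of all genes tested. The nearest tested neighbours were the non-coding genes Scarletltr, 58.7 kb away with a log2 value of 0.45 (SE 0.380), and Gm36033, 84.9 kb away with 0.59 (SE 0.281). Both were low, at means of 0.976 and 2.50 TPM in wild type, and both overlapped between genotypes. Past them, the protein-coding genes Zwilch, Rpl4, Snapc5, Map2k1, Tipin, Dis3l and Aagab had values between -0.27 and 0.01. Both kinds of neighbour were named after their values were seen. Apart from short RNAs within Smad5, at 5.03 TPM or less, no gene of the table overlapped a member.

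**Figure D4:**
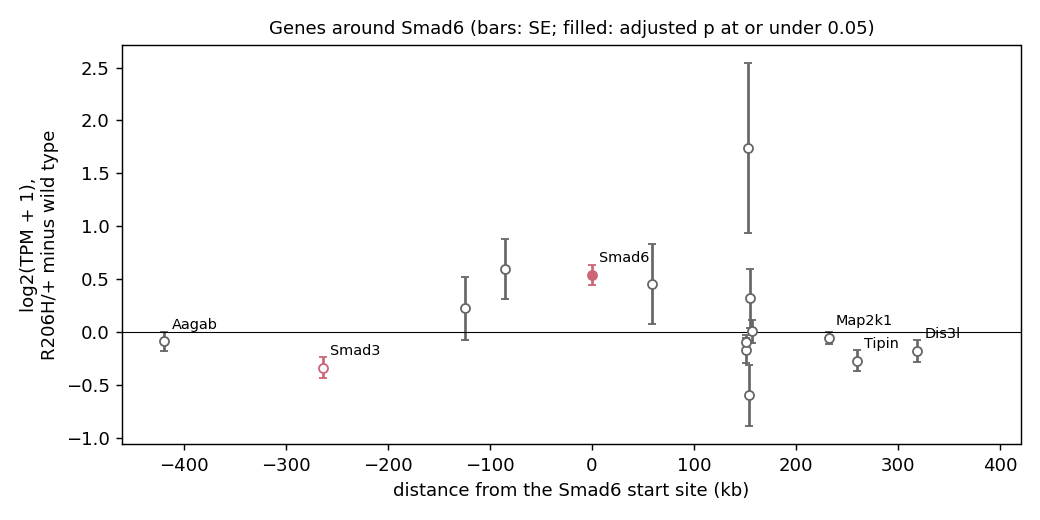
Log2(TPM + 1) in R206H/+ minus wild type (vertical axis, bars are SE) of the tested genes by distance of their start from that of Smad6 (horizontal axis, kb). Smad6 has the filled symbol of an adjusted p at or under 0.05, Smad3 lies 264 kb to the left, the protein-coding genes other than Smad3 and Smad6 lie between -0.27 (Tipin) and 0.01 (Snapc5), and the highest point is the small nucleolar RNA gene Gm23344 (1.74, SE 0.807).

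By likeness of pattern, the genes closest to Smad6 among 10171 with a mean of at least 5 TPM were Mpp2, Igfbp6, Id1, Tmem88 and Adcy2. Likeness was the root mean square difference over the 6 libraries between log2(TPM + 1) values centred on each gene's mean. It was 0.0366 for Mpp2, a scaffold protein of the membrane, 0.0597 for Igfbp6, which binds insulin-like growth factors, and 0.0600 for Id1, an inhibitor of helix-loop-helix factors and a classical BMP target. Tmem88 and Adcy2 were at 0.0618 and 0.0709. Id1 had 239.9, 289.8 and 337.6 TPM in wild type and 388.4, 380.1 and 415.6 TPM in R206H (log2 value 0.46, limma adjusted p = 0.0776). Like Smad6, it was lowest in wild-type library 1 and highest in R206H library 3. Igfbp6 was the one of the 5 that passed limma, at an adjusted p of 0.0476, and it lost the call when any library but R206H library 1 was left out. As the 5 were picked for likeness to Smad6, their difference between genotypes came with the pick and is no further result.

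The receptors upstream of the SMADs had no call among 11 tested of 12, beside 2.04% called of all genes tested. Acvr1, the mutated gene, had 35.7, 34.6 and 33.7 TPM in wild type and 43.9, 47.3 and 42.0 TPM in R206H, with no overlap and a log2 value of 0.35 (limma adjusted p = 0.0511). It passed with voom (adjusted p = 0.0339), with library weights (0.0169) and with a filter at TPM 5 (0.0417), and in none of the other 15 alternatives. TPM cannot tell the mutant from the normal allele, so the genotype labels were not checked by it. The BMP type I receptor gene Bmpr1a was at a log2 value of 0.18 (adjusted p = 0.145). Acvrl1, the type I receptor known from endothelium, had -0.26 (adjusted p = 0.162). The median of the receptors was 0.16, against 0.02 for all genes tested. Of the 11, 3 had an unadjusted p under 0.05, a share near the 26.1% of all genes tested.

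Enzymes that act on SMAD proteins also had no limma call, in 17 tested, beside 2.04% called of all genes tested. Their median log2 value was 0.04. At an unadjusted p under 0.05 there were 7 of the 17, beside 26.1% of all genes tested. Smurf1, a ubiquitin ligase that Smad6 and Smad7 recruit and that marks Smad1 and Smad5 for degradation, had 98.3, 88.3 and 89.9 TPM in wild type and 76.6, 73.6 and 68.6 TPM in R206H. All R206H libraries lay below (log2 value -0.33, limma adjusted p = 0.0569), and voom called it (adjusted p = 0.0234). Its relative Smurf2 had a log2 value of -0.28 (limma adjusted p = 0.106), also without overlap. Ctdsp2, a phosphatase known to act on SMADs, had 157.2, 145.5 and 147.0 TPM in wild type and 185.8, 207.2 and 250.9 TPM in R206H (log2 value 0.51, limma adjusted p = 0.0596, voom adjusted p = 0.0241).

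Of 27 tested anchors, coactivators and corepressors, 1 was lower and none higher, with a median log2 value of 0.05. Among all genes tested, 0.79% were called lower and 1.26% higher. The lower one was the corepressor gene Tgif1, at 42.2, 38.0 and 42.7 TPM in wild type and 32.1, 30.5 and 30.6 TPM in R206H (log2 change -0.39, limma adjusted p = 0.0476). Its call was lost without each library but R206H library 1. The corepressor gene Ski had 152.9, 147.9 and 155.8 TPM in wild type and 180.2, 185.2 and 213.7 TPM in R206H (log2 value 0.34, limma adjusted p = 0.0618, voom adjusted p = 0.0346). The histone acetyltransferase gene Kat2a was at -0.24 (adjusted p = 0.0801, voom adjusted p = 0.0480), and Runx2, the bone transcription factor that pairs with SMADs, at 0.41 (adjusted p = 0.0887).

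Downstream, 4 of 21 tested BMP and SMAD1/5 target genes outside the family were higher, none lower, and 17 did not pass. The shares over all genes tested were 1.26% higher and 0.79% lower. Without overlap between genotypes, 11 of the list were higher and 1 was lower, beside 17.9% and 15.0% of all genes tested. The higher ones were Msx2, Hand1, Id3 and Atoh8, with log2 changes of 1.18, 1.46, 0.76 and 1.04. The homeobox gene Msx1 had 5.41, 11.5 and 8.30 TPM in wild type and 23.5, 37.3 and 79.9 TPM in R206H, for a log2 value of 2.22 (limma adjusted p = 0.0520, voom adjusted p = 0.0378). Zfp503 had a log2 value of 0.34 (limma adjusted p = 0.0590, voom adjusted p = 0.0306). Voom called 6 of the list higher, beside 4.97% of all genes it tested. The median of the 21 was 0.43, against 0.02 for all genes tested. Several of these genes had been seen to be higher in these libraries before the list was written, so the count is a description. Set beside Smad6, whose log2 change was 0.54, 3 of the 4 called targets had changes of 1.04 or more.

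Of 22 tested TGF-beta and SMAD3 target genes, 6 were higher, 1 lower and 15 did not pass, with a median log2 value of 0.25. Beside them, 1.26% of all genes tested were higher and 0.79% lower. Without overlap between genotypes, 11 of this list were higher and 2 lower, beside 17.9% and 15.0% of all genes tested. The higher ones were Snai1, Tgfb3, Tgfbi, Itga11, Cdkn2b and Snai2, with log2 changes of 0.92, 0.74, 1.90, 1.12, 0.66 and 0.58. Tgif1 was the lower one. Next by p came Cdkn1a, Ltbp2 and Col1a1, at log2 values of 0.25, 1.15 and 1.20 (limma adjusted p = 0.0543, 0.0618 and 0.0655). These 3 passed with voom (adjusted p = 0.0480, 0.0216 and 0.0248), which called 9 of the list higher and 1 lower. Voom called 4.97% of all its genes higher and 3.85% lower. In the same libraries Smad3 had its log2 value of -0.34. None of the called targets in either list passed without wild-type library 2 or 3, or without R206H library 2 or 3, where limma called at most 5 genes in all.

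**Figure D5:**
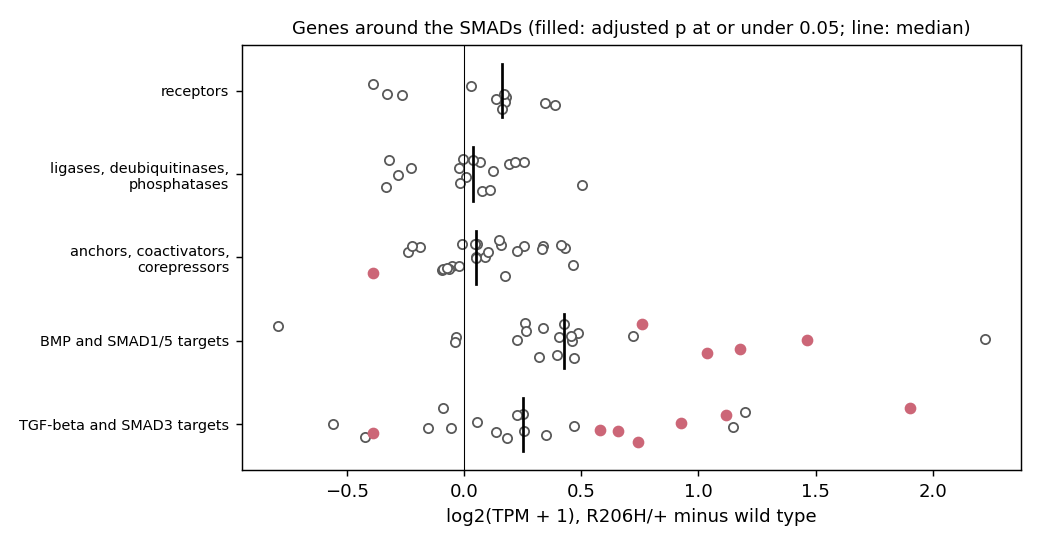
Log2(TPM + 1) in R206H/+ minus wild type (horizontal axis) of each tested gene in 5 lists around the SMADs, with the median of each list as a line. Filled symbols, adjusted p at or under 0.05, are 4 BMP targets, 7 TGF-beta targets and 1 corepressor, with Tgif1 as the lower one in both of the last groups.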

How the data were processed

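Per the labels' protocols, libraries were made after removal of rRNA, with paired reads of 150 bp. The unit of the table the authors deposited is TPM per Ensembl gene, for 6 libraries. Per the submitters' processing notes, the tools were STAR, Subread, featureCounts, Trimmomatic and DESeq2 (roles and versions unstated) and the builds GRCm38 and mm10. The strand setting, gene lengths and annotation release are not stated in those sources, so reads of overlapping antisense RNA could not be separated. TPM is a share of a library, so a rise of abundant transcripts lowers all others.

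A gene entered the test with TPM of 1 or above in 3 or more libraries (14818 genes). Testing was done on log2(TPM + 1) with limma 3.58.1 (R 4.3.3; trend, no covariate, two-sided, Benjamini-Hochberg at 0.05). Single members also had an exact permutation test. The pseudocount of 1 understates changes of low genes. No pair of libraries shared an identical non-zero value in more than 1 gene. Reads were rebuilt from TPM times exon length in GENCODE M21 (49056 identifiers matched): 91.1% to 91.4% of the values under 100 reads were whole within 0.05. limma voom on these reads was an alternative and called 1304 of 14785 genes. The tests were also run on simulated data. Python 3.11.15, pandas 2.3.3, scipy 1.17.1 and matplotlib 3.10.9 were used.

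The members and lists were chosen with earlier results of these data known. Genes named were the 8 members, Acvr1, the called members of each of 5 lists with up to 3 others of smallest p, and the 5 genes most like Smad6 (mean TPM of at least 5, no unnamed gene models). Ccn2 was matched as Ctgf. The ratio of Smad2 to Smad3 and the shares of summed TPM were added after the values were seen. Alternatives were other pseudocounts, filters, scalings and spreads, the replicate number as a block, voom, and leaving libraries out.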

Additional observations from a re-analysis of the deposited data

How the results depend on the processing

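Of 18 alternatives, 6 kept the call for Smad6 and 12 did not, with the direction upward in all 18, log2 changes of 0.45 to 0.62 and limma adjusted p of 0.0191 to 0.363. It was lost with a pseudocount of 0.1 (log2 change 0.54, adjusted p = 0.0504), median-of-ratios scaling (0.51, 0.0517), quantile normalization (0.52, 0.0517), no filter on low values (0.54, 0.110), limma without the trend (0.54, 0.0909) and without replicate 2 of both genotypes (0.56, 0.363). Leaving out 1 library gave 0.45 to 0.62. With the replicate number as a block it was 0.54 (adjusted p = 0.115). The block called 0 genes. Deviations of same-numbered libraries correlated at 0.018, 0.060 and -0.028, and those of other pairs at -0.052 to 0.030. Values this near to each other cannot decide whether the numbers pair the libraries.

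Smad9 and Smad3 passed with voom (log2 values 0.68 and -0.37), which called 2 members higher and 1 lower. The count of higher members was otherwise 1 or 0. Of the members that did not pass, Smad1 changed sign with library weights (0.003), without wild-type library 1 (0.015) and without R206H library 1 (0.014), and ranged from -0.096 to 0.015 when 1 library was left out. Smad7 did so without wild-type or R206H library 3 (0.011 and 0.003; range -0.133 to 0.011), and Smad4 without replicate 2 of both genotypes (-0.001). Leaving out 1 library gave 0.053 to 0.187 for Smad5 (lowest without wild-type library 3, highest without wild-type library 1) and 0.012 to 0.078 for Smad2 (lowest without R206H library 3).

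Over all genes, limma called 303, and 129 with a pseudocount of 0.1, 2 with no filter, 587 with a filter at TPM 5, 200 with quantile normalization, 27 without the trend, 1906 with library weights, 1304 with voom and 0 without replicate 2 of both genotypes. Leaving out 1 library gave 0 to 722. Neighbours apart in the wild-type order of levels numbered 4 to 7 when 1 library was left out.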
